A study of Mus musculus with 3 samples.

Results

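The fibroblast-like cells of the D6 paraxial mesoderm (PM) culture were the cells that the deposited clustering placed in 1 of its 6 D6 clusters. The culture had 5954 cells, of which 5292 lay in the other 5 clusters, and the whole series 15827. The fibroblast-like cells thus made up 11.1% of the D6 cells (95% Clopper-Pearson interval 10.3 to 11.9%). The D6 PM library came from embryoid bodies made from mouse embryonic stem cells (mESCs) of the ScxGFP reporter, a GFP transgene that reports the tendon gene Scx. The BMP receptor inhibitor LDN-193189 was in the medium from aggregation up to D6. CHIR, which activates WNT signalling, was added to it for the PM stage. The D10 culture had the same start and then received TGFβ1, SAG, a hedgehog agonist, and FGF2, while the third library was the tail of the E14.5 mouse embryo. There was 1 library of each, and the study's embryos came from ScxGFP mice on C57BL6 and were of both sexes. The sex and strain of the mESCs, and which of several ScxGFP+ mESC lines was sequenced, are not given in the sources used here. The mESCs had been derived and kept on irradiated mouse embryonic fibroblasts, serum and LIF before differentiation. Whether any cells of the cluster came from those fibroblasts was not tested, so its name describes markers and not an origin.

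Fibroblasts are connective tissue cells that secrete and remodel the extracellular matrix. They assemble fibres of type I, III and V collagen on a fibronectin scaffold, cross-link them with lysyl oxidases, hang microfibrils and small proteoglycans on them, and cut them with matrix metalloproteases. They also secrete chemokines and ligands or antagonists of the BMP, TGFβ and WNT pathways, and they keep a Hox code that reflects the body region they come from.

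Levels are given as CPM, counts per 1000000, taking the unique molecular identifiers (UMIs, 1 per captured transcript) of a gene summed over all cells of a cluster, divided by all UMIs of these cells. Intervals in parentheses are exact 95% intervals that cover counting error only, since cells of 1 library are not replicates. The cells were clustered on these same genes, so no test of the cluster against other cells was made, and a gene counts as higher or lower where its ratio to the other 5292 D6 cells was 2-fold or more, among 13273 autosomal genes whose UMIs in these 2 groups came to at least 100. By this rule 2038 genes (15.4%) were higher and 3809 (28.7%) lower, with a median log2 ratio of −0.31. Divided by that median ratio of 0.809, the counts were 2782 higher and 2914 lower, so the balance between the directions depends on the scaling. The lists below are read against these shares of all genes tested. The rule of 100 UMIs bears on both. A gene with few UMIs in the other D6 cells is tested only where its UMIs here are many, and it then counts as higher. Tallies of higher members are therefore partly set by the rule.

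The cells held a median of 8627.5 UMIs (quartiles 2269.75 and 13608) and 3158.5 genes, against 8137.5 UMIs and 3270.5 genes in the other D6 cells. Shallow cells were more frequent among them, 190 (28.7%) with under 3000 UMIs against 816 (15.4%). Scrublet called 13 of them (1.96%) as doublets. Of their barcodes, 1 also occurred in the D10 library and 1 in the tail library.

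All 12 fibroblast markers fixed for the check of the name were at least 2-fold higher than in the other D6 cells, and 11 were highest in this cluster of the 6. Type III collagen Col3a1 was the exception, at 781 CPM against 815 CPM in the somite-like cluster of 700 cells. That cluster was named from Tcf15, Meox1 and Foxc2, the 3 of 5 fixed somite markers that were highest in it. Of the fibroblast markers, Col1a1, Col6a3, Grem1 and Ccl5 were given with the cluster, so their levels are no separate support for the name. Grem1 and Ccl5 held 71 and 17 UMIs in the other D6 cells, so under the rule they could only count as higher. Thinned to 3000 UMIs, Lum was seen in 9.32% of these cells and 8.91% of somite-like cells, and Pdgfrb in 11.4% and 11.1%. Col1a1, the main chain of type I collagen, was at 3858 CPM (3808 to 3908) against 24.0 CPM in the other D6 cells, a ratio of 161 (151 to 171). Over cells, the quartiles of Col1a1 among the 472 with at least 3000 UMIs were 388, 1756 and 5104 CPM. In the other D6 cells of that depth all 3 quartiles were 0. Col6a3, a chain of the type VI collagen microfilaments, was at 601 CPM against 4.24 CPM (ratio 142, 123 to 164). Grem1, a secreted BMP antagonist, was at 446 CPM against 1.54 CPM (ratio 289, 228 to 371; 441 without doublets). All 3 varied among the cells, and none was present in all of them.

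Thinned to 3000 UMIs per cell, Col1a1 was detected in 80.5% of 472 cells (76.6 to 84.0%), Col6a3 in 56.4%, Grem1 in 48.1% and the chemokine Ccl5 in 6.57% (4.51 to 9.19%). The shares in the other D6 cells at the same depth were 4.87% for Col1a1, 1.21% for Col6a3, 0.313% for Grem1 and 0.156% for Ccl5, and in the 821-cell cluster, with a median of 9477 UMIs before thinning, Col1a1 was seen in 0.866%. Thinning left out the 190 and 816 cells under that depth. Ccl5 had a mean level of 288 CPM against 0.370 CPM, and 77.7% of its UMIs came from 10 cells, with 578 UMIs in the highest. Only 49 of all fibroblast-like cells held any Ccl5 UMI, so its level describes a minority. Of the 4 marker genes Col1a1, Col6a3, Grem1 and Ccl5, at least 1 was seen in all but 49 of the 472 cells at this depth, and 10 cells held all 4. Col1a1 and Col6a3 occurred together in 51.7% of cells (47.1 to 56.3%), where independent detection would give 45.4%. For every other pair of the 4 genes the interval held the independent value, and Col6a3 with Ccl5 lay under it, at 3.60% against 3.70%.

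**Figure D1:**
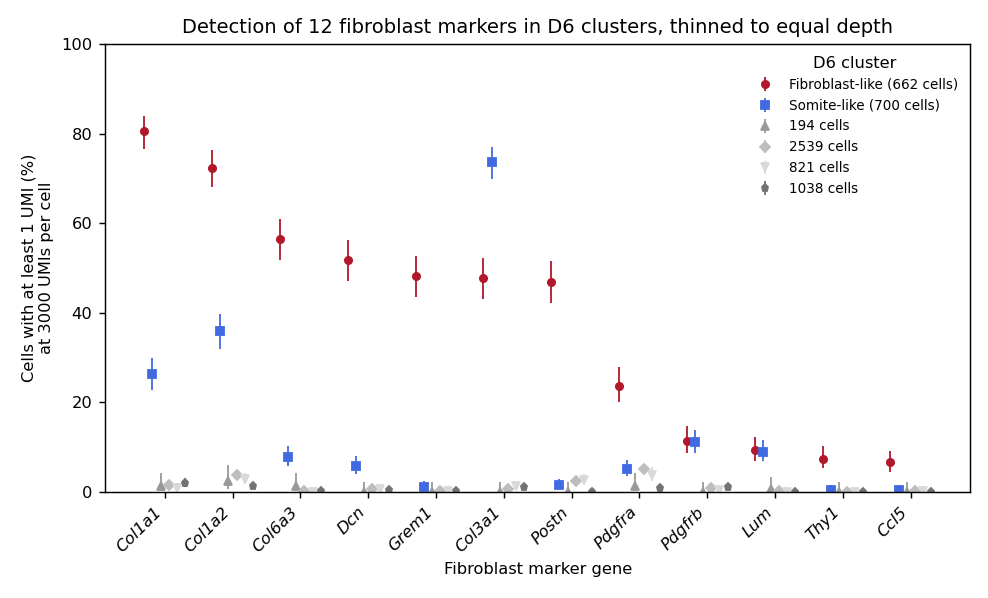
Share of cells with at least 1 UMI after thinning each cell to 3000 UMIs (y axis, percent) for the 12 fibroblast markers (x axis) in the 6 D6 clusters; points are shares and bars exact 95% Clopper-Pearson intervals. Col1a1 was seen in 80.5% of fibroblast-like cells and 26.2% of somite-like cells, while Col3a1 was seen in 47.7% and 73.6%, and Ccl5 in 6.57% and 0.330%.

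Of the fibrillar collagens, 6 of 10 tested genes were higher and 3 lower, with a median ratio of 21.6 where all genes had 0.809. Col1a2, the partner chain of type I collagen, was at 1732 CPM against 35.4 CPM (ratio 49.0, 46.5 to 51.6). The type V collagen chains, which set fibre diameter, were all higher. Col5a2 was at 440 CPM against 6.14 CPM, and Col5a3, the rarest chain elsewhere, at 221 CPM against 0.326 CPM (ratio 678, 410 to 1216). The cartilage collagens went the other way. Col2a1 had 0 UMIs where the other D6 cells held 14.4 CPM and the somite-like cells 33.7 CPM, and Col11a1 was at 3.73 CPM against 23.7 CPM. A count of 0 allows a level of up to 0.509 CPM here (3 counts of the total).

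All 8 tested collagens of the microfilament, fibril surface and short chain classes were higher, with a median ratio of 64.5. Col6a1 was at 517 CPM against 7.25 CPM, and Col12a1, which coats collagen fibres, at 638 CPM against 10.9 CPM. Col18a1, a basement membrane collagen and the source of endostatin, was at 1176 CPM and 7.16-fold higher, and the 194-cell cluster that is highest in the embryonic globin Hba-x held 737 CPM of it. Basement membrane genes were mixed, with 5 higher and 4 lower of 14 tested. Nidogen 1 (Nid1), which links laminin to collagen IV, was at 827 CPM against 26.2 CPM. Laminin α5 (Lama5), at 6.95 CPM against 49.4 CPM, and Nid2, at 11.5 CPM against 63.3 CPM, were lower.

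Among matrix glycoproteins, 12 of 21 were higher and 3 lower. Fibronectin (Fn1) was at 2093 CPM against 473 CPM (ratio 4.42, 4.32 to 4.52), and its quartiles over cells were 865, 1773 and 2976 CPM against 131, 359 and 696 CPM. Sparc, which chaperones collagen outside the cell, was at 2063 CPM against 318 CPM, and the 194-cell cluster held 1420 CPM. Thbs2, an antiangiogenic thrombospondin, at 428 CPM against 1.31 CPM, and Postn, which tethers lysyl oxidase activity to fibres, at 562 CPM against 8.31 CPM, were 328-fold and 67.6-fold higher. The 2 fibrillins of microfibrils split, Fbn1 being at 123 CPM against 4.81 CPM and Fbn2 at 12.2 CPM against 88.5 CPM. The somite-like cells held 537 CPM of Fbn2, and 33 of its 72 UMIs here lay in the sub-group of 29 cells described below.

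Of the proteoglycans, 5 of 7 tested were higher and none lower. Decorin (Dcn), which decorates type I collagen, was at 901 CPM against 5.03 CPM (ratio 179, 157 to 205), but its lower quartile over cells was 0, its median 220 CPM and its upper quartile 1261 CPM. Versican (Vcan), at 183 CPM, was 0.664-fold the level of the other cells and far under the 1464 CPM of the somite-like cells. Of the enzymes that hydroxylate, fold, trim and cross-link collagen, 13 of 15 were higher and none lower, with a median ratio of 5.92. Lox was at 482 CPM against 1.24 CPM (ratio 389, 299 to 515). Fkbp10, a collagen chaperone, was 12.4-fold higher and Pcolce, which speeds procollagen trimming, 8.89-fold higher. Serpinh1, a collagen chaperone of the endoplasmic reticulum, was at 665 CPM, 1.21-fold the other D6 cells, and at 1418 CPM in the somite-like cells.

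**Figure D2:**
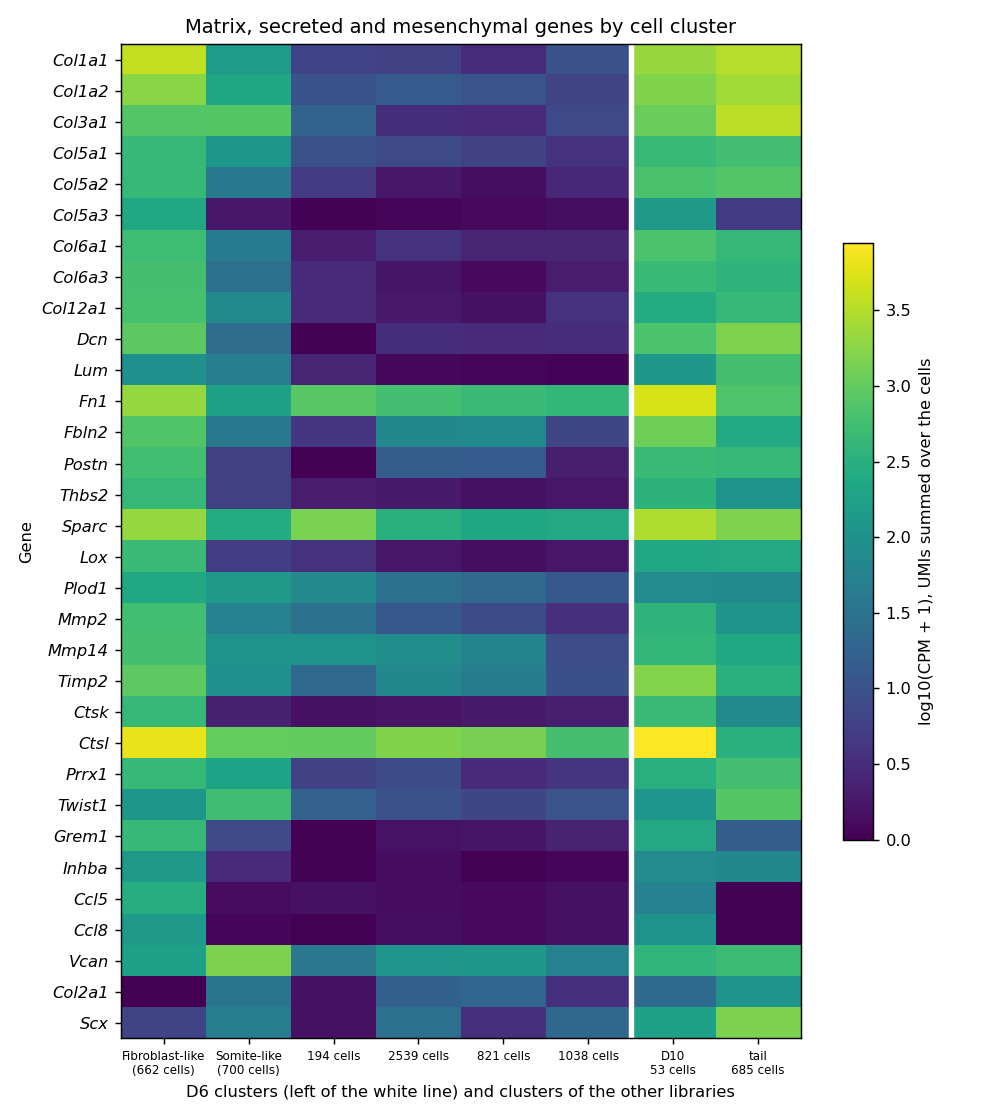
Heat map of log10(CPM + 1) for 32 matrix, secreted and mesenchymal genes (rows) in the 6 D6 clusters and, right of the white line, a 53-cell cluster of the D10 culture and a 685-cell cluster of the E14.5 tail. The fibroblast-like column is bright from Col1a1 to Ctsl, the somite-like column is brighter for Vcan (1464 CPM) and Twist1 (536 CPM), and Col2a1 is at 0 UMIs in the fibroblast-like cells.

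The matrix proteases and their inhibitors were almost all on 1 side, with 19 of 20 tested members higher, 1 lower and a median ratio of 25.3. This tally is partly set by the rule for testing. In the other D6 cells Mmp13, Mmp3 and Ctsk held 2, 11 and 41 UMIs. These genes were tested only through the UMIs of the fibroblast-like cells, so they could only count as higher. The gelatinase Mmp2 was at 566 CPM against 14.8 CPM (ratio 38.1, 35.1 to 41.5), and Mmp14, which activates it at the cell surface, at 602 CPM against 63.9 CPM. Timp2, the inhibitor that takes part in this activation, was at 937 CPM against 49.1 CPM. Stromelysin and collagenase genes were present in few cells. Mmp13 was at 51.2 CPM against 0.0435 CPM and Mmp3 at 89.9 CPM against 0.239 CPM, seen at equal depth in 3.81% and 9.32% of cells. Cathepsin K (Ctsk), a collagen-degrading protease, was at 442 CPM against 0.892 CPM and seen in 41.9% of cells. Cathepsin L (Ctsl) was abundant in all D6 clusters, with 6475 CPM here and at most 1558 CPM in another cluster. The only lower member was the aggrecanase-family gene Adamts9, at 4.92 CPM against 12.6 CPM.

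Of the surface proteins of mesenchyme, 14 of 20 were higher and 2 lower. Cd44, the hyaluronan receptor, was at 192 CPM against 4.09 CPM, and Ly6a, the Sca-1 antigen, at 35.1 CPM against 0.152 CPM. The PDGF receptor Pdgfra was at 104 CPM against 14.4 CPM. Pdgfrb was at 43.2 CPM and close to the 41.6 CPM of the somite-like cells. Of the actin cytoskeleton genes of smooth muscle and myofibroblasts, 3 of 14 were higher, namely Tpm2, Smtn and the intermediate filament gene Vim, and 2 were lower. Vim was at 9589 CPM against 556 CPM (ratio 17.3, 17.0 to 17.5) and found in 99.4% of thinned cells. Smooth muscle actin Acta2, the usual myofibroblast marker, was at 9.16 CPM against 15.8 CPM (ratio 0.580), and with a mean of CPM per cell in place of summed UMIs its ratio was 1.56, so its direction depends on how cells are weighted.

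Of the mesenchymal transcription factors, 16 of 28 were higher and 4 lower. Prrx1, a homeobox gene of limb and head mesenchyme, was at 444 CPM against 30.0 CPM, and 195 CPM in the somite-like cells. Runx2, the master gene of bone formation, was at 50.9 CPM against 0.370 CPM, while its osteoblast successor Sp7 had 1 UMI, or 0.170 CPM. Twist2 was at 41.0 CPM against 1.98 CPM, Shox2, a gene of proximal limb mesenchyme, at 42.2 CPM against 1.57 CPM, and Tbx15 at 18.7 CPM against 0.239 CPM. With a mean of CPM per cell the ratio of Tbx15 went from 77.9 to 32.4. Twist1 was at 123 CPM, between the other D6 cells as a whole (78.3 CPM) and the somite-like cells (536 CPM). Against the somite-like cells alone, 15.4% of 9605 genes tested were higher and 23.3% lower, and the list turned to 7 higher and 10 lower of 25. Snai1, Snai2, Zeb1 and Tbx18, called higher against all other D6 cells, were at 0.945, 0.336, 0.602 and 0.654 times the somite-like level. In thinned cells Snai2 and Zeb1 were also under 2-fold against all other D6 cells, with values given in the last section.

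The Hox genes, summed by paralog group after their values had been seen, had different profiles in the fibroblast-like and the somite-like cells. Groups 1 to 5, which lie at the 3′ end of the clusters and mark anterior levels, summed to 85.6 CPM (78.3 to 93.4) against 544 CPM (525 to 563) in the somite-like cells. Groups 6 to 8 summed to 129 CPM (120 to 139) against 75.0 CPM, and groups 9 to 13, which mark posterior and limb levels, to 136 CPM (127 to 146) against 46.1 CPM. Hoxc8 was at 36.8 CPM with 217 UMIs in 109 cells, where the somite-like cells held 3 UMIs (0.494 CPM). The other genes of group 8 were the reverse, Hoxb8 being at 8.14 CPM against 17.4 CPM and Hoxd8 at 11.2 CPM against 25.3 CPM. Hoxa10 was at 18.1 CPM and Hoxa11 at 11.2 CPM, and both had 0 UMIs in the somite-like cells. Hoxb1, at 0.339 CPM against 39.6 CPM, was the reverse. Within the posterior band the genes were not uniform, since Hoxd9 was at 4.58 CPM here and at 37.8 CPM in the somite-like cells. The tail cluster of 685 cells held 346 CPM of group 10 and 264 CPM of group 13, against 37.0 and 12.5 CPM here. The plot of Hox genes by paralog group shows the crossing between groups 5 and 6.

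**Figure D3:**
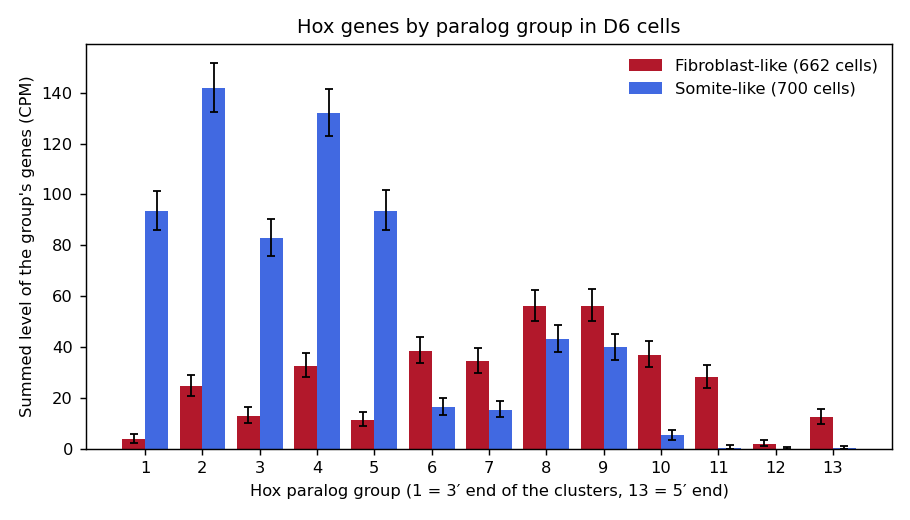
Summed level (y axis, CPM) of the Hox genes of each paralog group (x axis) in fibroblast-like and somite-like D6 cells; bars are levels and whiskers exact 95% Poisson intervals, for counting error only. Somite-like cells are higher in groups 1 to 5 and fibroblast-like cells in groups 6 to 13.

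Of the chemokines and cytokines, 10 of 15 tested were higher and 1 lower. In the other D6 cells Ccl5, Ccl7, Ccl8 and Cxcl2 held 17, 2, 16 and 9 UMIs. They were tested only through the UMIs of the fibroblast-like cells, so they could only count as higher. The monocyte chemoattractants Ccl7, at 49.2 CPM against 0.0435 CPM, and Ccl8, at 132 CPM against 0.348 CPM, were at or under 1 CPM in the other D6 cells. The neutrophil chemokines Cxcl1 and Cxcl2 were at 93.4 CPM against 0.566 CPM and 70.5 CPM against 0.196 CPM. With a mean of CPM per cell the ratio went from 165 to 74.9 for Cxcl1 and from 378 to 758 for Ccl8. In thinned cells it went from 360 to 136 for Cxcl2. Cxcl2 came from few cells, and 400 of its 416 UMIs lay in 10 cells of the largest of the sub-groups described below. Il33, an alarmin of stromal cells, was at 70.0 CPM against 0.696 CPM, and Csf1, the growth factor of macrophages, at 52.7 CPM against 3.11 CPM. Cxcl12, by contrast, was at 24.6 CPM and at 265 CPM in the somite-like cells.

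Of the genes of the interferon response and of antigen presentation, 14 of 20 were higher and 1 lower. The MHC class I light chain B2m was at 1726 CPM against 104 CPM (ratio 16.6, 16.0 to 17.2) and seen in 95.1% of thinned cells. The heavy chain H2-D1 was at 975 CPM against 43.2 CPM. Genes that interferon induces were uneven. Ifit1 was at 43.9 CPM in 2.54% of thinned cells, Isg15 at 29.2 CPM in 5.08% and Ifi27 at 98.3 CPM in 24.4%, while Ifitm3 was at 528 CPM against 228 CPM and seen in 63.8%. Bst2 was at 181 CPM against 143 CPM, within 2-fold. Ifitm1, also a marker of early mesoderm, was the lower member, at 24.4 CPM against 652 CPM, with 101 of its 144 UMIs in a sub-group of 29 cells. Without the small sub-groups (these 29 cells and a sub-group of 12, both described below) its ratio was 0.0121 in place of 0.0375.

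The BMP and TGFβ list split evenly, 13 higher and 13 lower of 33. BMP ligands were low, Bmp4 being at 5.43 CPM against 22.9 CPM, Bmp7 at 2.54 CPM against 32.5 CPM and Bmp2 at 35.3 CPM against 97.6 CPM. Antagonists differed by gene, since Grem1 was higher and follistatin (Fst, 9.83 CPM against 59.6 CPM) and chordin (Chrd, 5.60 CPM against 21.8 CPM) lower. Id1 and Id3, transcriptional targets of BMP, went apart, Id1 being at 83.4 CPM against 37.6 CPM and Id3 at 16.8 CPM against 171 CPM. Inhba, the activin A subunit, was at 134 CPM against 0.435 CPM (ratio 309, 198 to 508). Tgfb1 was at 148 CPM against 9.46 CPM and Tgfb2 at 71.7 CPM against 162 CPM. The receptor Tgfbr2 was at 104 CPM against 5.96 CPM and Tgfbr1 at 26.8 CPM against 42.7 CPM.

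WNT pathway genes were mostly lower, 11 of 19 against 5 higher. Some target genes of the pathway were among the lower ones. Sp5 was at 9.49 CPM against 198 CPM, Axin2 at 5.76 CPM against 42.2 CPM, Nkd1 at 4.24 CPM against 57.3 CPM, and the secreted inhibitor Dkk1 at 3.73 CPM against 280 CPM. Without the small sub-groups the ratio went from 0.0479 to 0.0170 for Sp5, from 0.0740 to 0.0491 for Nkd1 and from 0.0133 to 0.00468 for Dkk1, and in thinned cells from 0.137 to 0.0804 for Axin2. Of the higher genes, Wisp1 was at 80.4 CPM against 1.04 CPM and Wnt5a at 56.1 CPM against 11.0 CPM. In the growth factor list, 14 of 29 were higher and 9 lower. Igfbp7 was at 191 CPM against 2.57 CPM and Igfbp6 at 59.2 CPM against 1.78 CPM. The IGF binding protein Igfbp2, at 70.5 CPM against 2360 CPM, and midkine (Mdk), at 125 CPM against 2444 CPM, were lower. Of their UMIs, 277 of 416 and 449 of 739 lay in the sub-group of 29 cells with most doublet calls, and without the small sub-groups the ratios were 0.0105 and 0.0209 in place of 0.0299 and 0.0513.

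Retinoid genes were divided, with 6 higher and 5 lower of 14. The binding protein Crabp1 was at 742 CPM against 12.6 CPM (ratio 58.7, 53.8 to 64.1), the receptor Rarg at 58.2 CPM against 7.66 CPM, and the degrading enzyme Cyp26b1 at 66.6 CPM against 4.03 CPM. Its relative Cyp26a1 had 0 UMIs against 19.1 CPM. Aldh1a2, which makes retinoic acid, was at 2.54 CPM and at 223 CPM in the somite-like cells, and 10 of its 15 UMIs lay in the sub-group of 29 cells. Of the hedgehog genes, 2 were higher and 4 lower of 10, and the target and receptor Ptch1 was at 20.5 CPM against 78.0 CPM.

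Genes of DNA replication and mitosis were lower in 21 of 22 cases, with a median ratio of 0.0708 where all genes had 0.809. The exception was E2f1, at 44.6 CPM against 21.8 CPM. Top2a was at 18.8 CPM against 328 CPM, Mki67 at 8.14 CPM against 163 CPM and Ccnb1, cyclin B1, at 2.71 CPM against 86.0 CPM. Of their UMIs, 76 of 111, 40 of 48 and 14 of 16 lay in the sub-group of 29 cells with most doublet calls. Without the small sub-groups the ratios went from 0.0574 to 0.0154 for Top2a, from 0.0500 to 0.00922 for Mki67 and from 0.0315 to 0.00436 for Ccnb1. At 3000 UMIs per cell, 8 of 472 cells (1.69%, 0.735 to 3.31%) held 2 or more UMIs of 6 mitotic genes. In the other clusters this share ran from 6.55% in the largest cluster to 90.9% in the cluster of 821 cells, and it was 34.0% in the somite-like cells. Of the 8 cells, 6 lay in a sub-group of 29 cells that held 11 of the 13 doublet calls, 1 in the largest sub-group, where 410 cells had this depth, and 1 in a sub-group of 12 cells.

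CDK inhibitors, which hold the cell cycle, were higher for 3 of 6 and lower for none. Cdkn1a (p21) was at 1693 CPM against 405 CPM (ratio 4.18, 4.08 to 4.28), with quartiles over cells of 844, 1409 and 2252 CPM against 0, 242 and 548 CPM. Cdkn2a, the locus of p16 and ARF, was at 751 CPM against 24.7 CPM (ratio 30.4, 28.5 to 32.5) and detected in 76.5% of thinned cells against 1.65% of somite-like cells. Among the other D6 clusters its share was highest in the cluster of 1038 cells, at 18.4%. Cdkn2b (p15) was at 198 CPM against 6.81 CPM. The imprinted inhibitor Cdkn1c was at 186 CPM, under the 1724 CPM of the somite-like cells. Of the p53 target genes, 8 of 23 were higher and none lower. Mdm2, the p53 inhibitor, was at 464 CPM against 120 CPM, Ccng1 at 390 CPM against 119 CPM and Fas at 42.2 CPM against 1.22 CPM. The proapoptotic targets Bax (0.867-fold) and Bbc3 (0.969-fold) were near the level of the other cells.

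**Figure D4:**
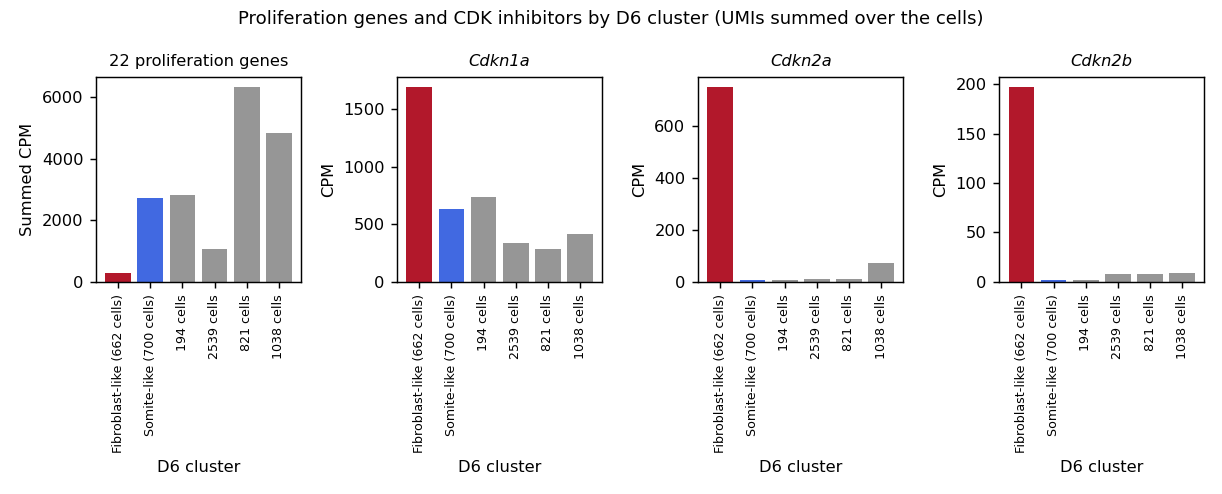
Summed level of 22 replication and mitosis genes and levels of Cdkn1a, Cdkn2a and Cdkn2b (y axes, CPM) in the 6 D6 clusters (x axes); bars are levels from UMIs summed over all cells of a cluster. The fibroblast-like bar is the lowest for the proliferation genes and the highest for all 3 inhibitors, with 1693, 751 and 198 CPM.

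Imprinted growth genes were lower for 10 of 15 and higher for 3. The higher genes were all noncoding RNAs transcribed from the maternal allele. Meg3 was at 1185 CPM against 16.7 CPM (ratio 70.8, 65.8 to 76.4), its neighbour Rian at 50.9 CPM against 2.63 CPM, and H19 at 653 CPM against 203 CPM. At 3000 UMIs per cell Meg3 was seen in 68.9% of these cells and in at most 3.92% of another D6 cluster. H19 was not particular to these cells, with 41.3% here, 44.7% in the somite-like cells and 47.6% in the 194-cell cluster. The paternally expressed genes beside these noncoding RNAs were low, Dlk1 being at 15.6 CPM against 106 CPM and Igf2 at 1.36 CPM against 6.05 CPM. Peg3 was at 54.8 CPM against 535 CPM and Mest at 10.5 CPM against 166 CPM. Without the small sub-groups the ratio went from 0.148 to 0.0639 for Dlk1 and from 0.0632 to 0.0282 for Mest.

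Markers of other lineages that embryoid bodies can hold were mostly lower. All tested markers of endoderm (13), epithelium (9), embryonic blood (5) and skeletal and heart muscle (5) were lower, as were 16 of 18 pluripotency genes and 12 of 13 somite genes. Klf4, at 67.5 CPM against 43.4 CPM, and Lfng, at 0.530-fold, were among the 3 genes within 2-fold. Nanog was at 1.53 CPM against 88.2 CPM, Sox17 at 12.9 CPM against 310 CPM and Epcam at 23.1 CPM against 783 CPM. Without the small sub-groups the ratios went from 0.0173 to 0.0106 for Nanog, from 0.0415 to 0.0139 for Sox17 and from 0.0295 to 0.00790 for Epcam, and for Nanog, with 9 UMIs, the ratio was 0.0449 in thinned cells. The somite markers Tcf15, Meox1 and Pax3 were at 2.54, 1.87 and 0.678 CPM against 36.4, 27.0 and 26.2 CPM, and without the small sub-groups the ratio went from 0.0699 to 0.0360 for Tcf15 and from 0.0690 to 0.0208 for Meox1. Endothelial genes were lower for 5 of 6, and Esam was at 19.2 CPM against 9.20 CPM (2.08-fold). At 3000 UMIs per cell Esam was 1.19-fold, and 22 of its 113 UMIs lay in the sub-group of 12 cells described next. Of 7 skeletal genes 4 were lower, while osteopontin (Spp1), a secreted phosphoprotein, was at 2928 CPM against 263 CPM. Spp1 was shared with the D6 cluster of 1038 cells, where 74.1% of thinned cells held it, against 72.9% here. Stmn2, a neuronal microtubule gene, was the higher of 3 neural genes, at 267 CPM against 80.3 CPM. Of 3 tendon genes tested 1 was higher, 1 lower and 1 within 2-fold of the other D6 cells, with a median ratio of 0.708. Against the somite-like cells 2 of 3 were lower and none higher. Egr1, of this list, was at 361 CPM with 2130 UMIs. Scx was at 5.43 CPM (3.71 to 7.66) against 50.2 CPM in the somite-like cells. The ScxGFP transgene had 0 UMIs, which allows up to 0.509 CPM, against 1.48 CPM in the somite-like cells.

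Of 10 macrophage genes 5 were tested and all 5 were higher, and they came from few cells. Unsupervised clustering of the fibroblast-like cells alone gave 4 sub-groups of 443, 178, 29 and 12 cells. This was at resolution 0.2, and the large sub-groups depend on it. At resolution 0.5 the 12 cells stayed apart and the 29 were joined by 1 other cell. The 443 cells were divided further, and 30 of the 178 were placed with 140 of the 443. The 12 cells had a median of 18386.5 UMIs and held 3421 of the 3692 UMIs of the lysozyme gene Lyz2, at 15467 CPM, with the immune receptor adaptor Tyrobp at 2215 CPM and Cd36 at 1537 CPM. Col1a1 was at 4.52 CPM in them, from 1 UMI. Cd5l, Clec4d, Lyz2 and Trem2, which stood among the 10 genes with the largest ratios over the whole cluster, had 335 of 336, 343 of 346, 3421 of 3692 and 615 of 722 UMIs there. Trem2 was also seen in 51 of the 443 cells. In the whole cluster 13 cells (1.96%) held 20 or more UMIs of 4 macrophage genes, against 0 of the other 5292 D6 cells.

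The 29 cells of the third sub-group held the epithelial keratin Krt18 at 804 CPM, Epcam at 295 CPM and Top2a at 222 CPM beside Col1a1 at 2168 CPM, and 11 of them were called as doublets. Without these 41 cells, a setting chosen after seeing the data, Laptm5 passed from 3.83-fold higher to 0.0756-fold, and Cxcl16 from 2.27-fold higher to 0.892-fold. Lyz2 went from 719-fold to 58.2-fold, with 262 of its remaining UMIs in 4 cells of the 178-cell sub-group, and to 2.04-fold when cells under 3000 UMIs were also left out. Cd68 went from 4.31-fold to 1.32-fold and Tyrobp from 77.9-fold to 1.72-fold, so both passed under 2-fold. Trem2 went from 563-fold to 92.2-fold and, when cells under 3000 UMIs were also left out, 86.2-fold. Krt18 went from 0.0440-fold to 0.0107-fold and Top2a from 0.0574-fold to 0.0154-fold. The count of all genes was 2035 higher and 3947 lower, and of the genes called with all cells 95.5% of the higher and 98.4% of the lower ones were called again. The 10 genes with the largest ratios were then Mmp13, Ccl7, Ccl5, Col5a3, Ctsk, Rarres2, Gm13305, Lox, Mmp3 and Ifi207. The part of doublets in the 29 cells was not tested beyond these values.

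The 2 large sub-groups differed in depth and in levels. The 443 cells had a median of 10918 UMIs and gave 85.0% of all UMIs, and the 178 cells had 1393 UMIs and gave 5.49%. Col1a1 was at 4292 CPM in the former and 1548 CPM in the latter, Fn1 at 2312 and 970 CPM, and Meg3 at 1307 and 427 CPM. Crabp1 was the reverse, at 748 and 1765 CPM, and Cdkn2a was alike at 803 and 835 CPM. The genes with the largest ratios in the shallow sub-group were CT010467.1 (1011 CPM against 92.0 CPM in the rest of the cluster), Acta2 (55.6 CPM against 6.46 CPM, with 18 UMIs in 7 cells), Mir6236 (1623 CPM against 385 CPM) and Gm42418 (27270 CPM against 7636 CPM). The part of depth in these differences was not tested.

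A further difference between the cluster and its neighbours lay in genes with near-identical copies, which were singled out after their values had been seen. Rps18, a protein of the small ribosomal subunit, was at 103 CPM against 2169 CPM in the other D6 cells. Its intronless copy Gm10260 was at 1008 CPM against 4.09 CPM. The copy thus took 90.7% of the UMIs of the pair here and 0.188% in the other cells, and 0.0913 to 0.308% in each other D6 cluster. In the GENCODE M21 annotation of GRCm38, Rps18 lies at chr17:33951999-33956001 on the minus strand, and Gm10260 at chr13:97760072-97760632 on the minus strand. The transcripts share 540 of 545 aligned bases (99.1%). The difference is carried by 5 bases, T243C, A394C, G428A and G488A in the coding sequence and G534C after it, and the 2 coding windows nearest the 3′ end are shown because reads of the 2 genes can be told apart at such bases, and otherwise only at transcript ends outside the alignment. Positions are counted from 1 at the 5′ end of the Rps18 transcript, the parent base stands first, and capitals mark the differing base.
Rps18 at G428A: ccatagagggctgcGccacttttggggcc
Gm10260 at G428A: ccatagagggctgcAccacttttggggcc
Rps18 at G488A: tggccgcaggggccGaactgtgggtgtat
Gm10260 at G488A: tggccgcaggggccAaactgtgggtgtat

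The shares were also counted cell by cell. Of 427 fibroblast-like cells with at least 5 UMIs of the pair, 407 (95.3%) held more of the copy than of Rps18, and of 4712 such cells among the other D6 cells 0 did. In the sub-group of 12 cells with macrophage genes 9 of the 10 such cells held more of the copy, and in the sub-group of 29 cells with keratins 7 of 24 did. The authors' counting ignored reads that map to more than 1 place, so both levels are uncertain, as is the summed level of 1111 CPM against 2173 CPM. A level of a copy here means UMIs counted to it. A transcript of the parent gene that carried the bases of the copy would be counted to the copy too, and which gene the reads came from was not tested, for this or the other pairs.

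**Figure D5:**
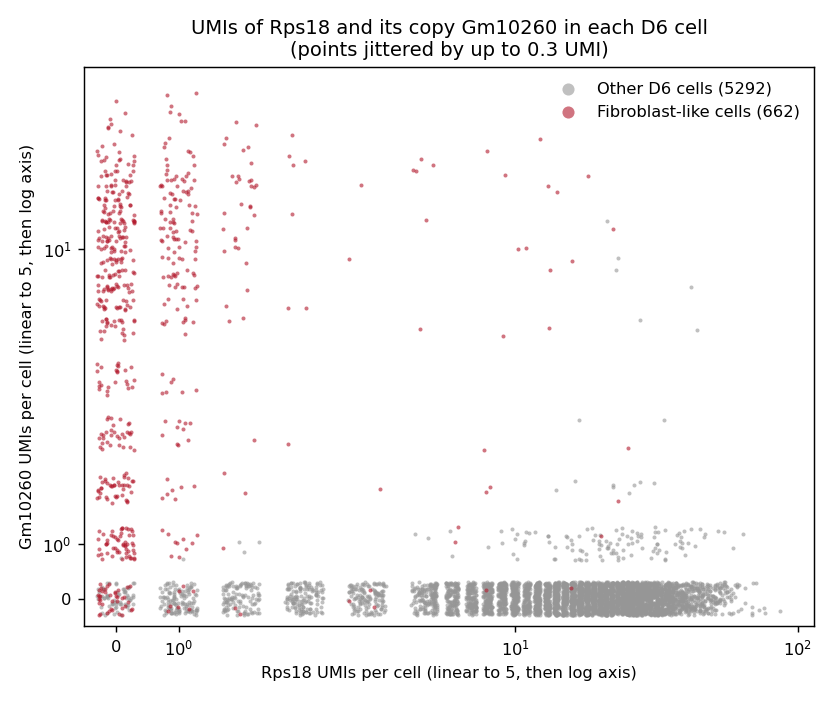
UMIs of Rps18 (x axis) and of its copy Gm10260 (y axis) in each D6 cell, with both axes linear up to 5 and logarithmic above, and points jittered by up to 0.3 UMI. Fibroblast-like cells lie along the Gm10260 axis and other D6 cells along the Rps18 axis; 407 of 427 fibroblast-like cells and 0 of 4712 other cells with 5 or more UMIs held more of the copy.

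The same held for other pairs to different degrees. Gm15772, a processed pseudogene of Rpl26 at chr5:3236431-3236868 on the plus strand, took 53.8% of the pair's UMIs here and 0.0918% in the other D6 cells, with Rpl26 at 242 CPM against 1990 CPM. It shares 436 of 438 aligned bases with Rpl26, which lies at chr11:68901583-68906989 on the plus strand. The 2 differing windows, with positions from the 5′ end of the Rpl26 transcript and the differing base in capitals, are the following.
Rpl26 at C224T: gttcaggttgttcgCggacactacaaagg
Gm15772 at C224T: gttcaggttgttcgTggacactacaaagg
Rpl26 at T335C: ggcacaaccgtccaTgtgggcatccaccc
Gm15772 at T335C: ggcacaaccgtccaCgtgggcatccaccc

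Rpsa-ps10, a processed pseudogene of Rpsa with 99.3% identity, was at 1522 CPM against 72.0 CPM and took 94.7% of its pair's UMIs against 31.0%. Rps3a3 took 12.4% against 0.156% of its pair with Rps3a1, but it was seen in 118 cells, and 61 of the 483 cells with 5 or more UMIs held more of it than of Rps3a1. Rpl14-ps1 took 15.5% against 2.14% of its pair with Rpl14. Gm13305, which was set beside the interleukin receptor gene Il11ra1 without an alignment, took 90.2% against 0.716%. These 6 pairs were picked for a larger share of the copy, and no count over all parent and copy pairs was made. Among all 74 ribosomal protein genes tested the median ratio was 0.618, 16 were lower, and Rps12 alone was higher, at 2.11-fold. Rps2 was the lowest, at 99.7 CPM against 2708 CPM, and 489 of the cells (73.9%) held no UMI of it, where 38 of the other D6 cells did. Of its 588 UMIs, 340 lay in the 29-cell sub-group, and without the small sub-groups its ratio went from 0.0368 to 0.0168. In the tail clusters Rps2 was at 3.77 to 23.5 CPM, and Gm10260 was at most 3.44 CPM there.

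Of the other clusters of at least 25 cells in the 3 libraries, the D10 cluster of 53 cells was the most like the fibroblast-like cells, with a Pearson correlation of 0.892 of log2(CPM + 1) across 11204 autosomal genes. These were the genes with at least 20 UMIs in the fibroblast-like cells. Genes found mainly in a compared cluster were thus left out, and the ranking holds for this choice of genes only. The next were the D10 cluster of 2964 cells at 0.769 and the 855-cell D10 cluster at 0.747. The nearest D6 cluster, of 194 cells, stood at 0.747, and the nearest tail cluster, of 157 cells, at 0.737. Genes are not independent, and clusters of 1 library share its depth and preparation, so these values are descriptions only. In the 53 cells, Gm10260 took 73.1% of the UMIs of its pair, and 20 of the 28 cells with 5 or more UMIs held more of the copy, against 0 of 4963 other D10 cells. Rps2 was at 251 CPM there and between 1052 and 2448 CPM in the other D10 clusters.

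Compared with these 53 cells, which hold 439035 UMIs, 612 of 7190 genes tested (8.51%) were higher in the D6 fibroblast-like cells and 379 (5.27%) lower. Library and day cannot be told apart in this comparison. None of 7 fibrillar collagens passed 2-fold in either direction. Col1a1 was at 3858 CPM at D6 and 2166 CPM (2031 to 2308) at D10, a ratio of 1.78 (1.67 to 1.90). Higher at D6 were the chemokine Cxcl1, at 93.4 CPM against 6.83 CPM, and Cxcl2, at 70.5 CPM against 0 UMIs. Cxcl2 was in 14 of the D6 cells (2.11%), so 53 cells could miss it by the cells drawn. Of 10 chemokines and cytokines tested 3 were higher and 3 lower at D6, the latter being Ccl2, at 47.6 CPM against 143 CPM, Ccl7, at 49.2 CPM against 130 CPM, and Cxcl12, at 24.6 CPM against 68.3 CPM. Snhg1, Snhg12 and Zfas1, noncoding hosts of small nucleolar RNAs, were among the 10 genes with the most extreme ratios toward D6. Snhg1 was at 1487 CPM against 148 CPM (ratio 10.0), Snhg12 at 687 CPM against 61.5 CPM and Zfas1 at 737 CPM against 79.7 CPM.

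Lower at D6 than in the 53 cells were Scx, at 5.43 CPM against 178 CPM (ratio 0.0305, 0.0196 to 0.0466), the protease inhibitor Tfpi2, at 14.6 CPM against 412 CPM, and the stromelysin Mmp3, at 89.9 CPM against 881 CPM. Scx was at 2410 CPM in the 2964-cell D10 cluster, and free RNA between droplets was not measured. Id3 was at 16.8 CPM against 155 CPM and Thbs1 at 40.2 CPM against 371 CPM. Of 17 mesenchymal surface genes 8 were lower at D6 and none higher, and of 11 contractile genes 5 were lower and none higher. Interferon and antigen genes were higher at D6 for 6 of 14 and lower for none. Of the 4 macrophage genes in the cell count above, 20 or more UMIs were found in 4 of the 53 cells (7.55%) against the 13 cells (1.96%) at D6.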

How the data were processed

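Cells were dissociated, dead cells were depleted, and 10x Genomics 3′ v3 libraries were sequenced, 1 library each of the D6 PM culture, the D10 culture and the E14.5 tail. The authors mapped reads with Cell Ranger against a reference genome not named for these libraries, ignored multi-mapping reads, and filtered and clustered cells with Seurat 3.0. The deposited values are raw UMI counts with a cluster code per cell, and the cluster was taken as deposited. The members and the gene lists were chosen with earlier results of these data known. UMI counts were summed over the cells of a cluster and divided by their total (5897865 UMIs here, 45960960 in the other D6 cells) to give CPM. Of 24726 autosomal genes, 13273 whose UMIs in the 2 groups came to at least 100 were compared, and 2-fold was the rule of size. Genes on the sex chromosomes and the mitochondrial genome were left out. Named genes were the list members and 25 genes on either side with the most extreme ratios (at least 50 CPM in the higher group; 10 for D10); Hox sums, leading genes of sub-groups, ribosomal protein genes and their copies were added after their values were seen. Exact Poisson, Clopper-Pearson and conditional binomial intervals (95%) cover counting error only. With 1 library of each kind no test between groups was made, and PCR or culture variation is not measured. Cells were thinned to 3000 UMIs for shares, doublets were called by Scrublet (expected rate 6%) and kept, and sub-groups were found by Leiden clustering (2000 variable genes, 20 components, resolution 0.2) with Scanpy 1.11.5. The summing and ratio steps were tested on simulated data. Transcripts and coordinates are from GENCODE M21 (GRCm38). Analyses used Python 3.11.15, NumPy 2.4.6 and SciPy 1.17.1.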

Additional observations from a re-analysis of the deposited data

How the results depend on the processing

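The fibroblast-like share of 11.1% was 9.60% (8.82 to 10.4%) without cells under 1000 detected genes and 11.1% without doublets. Against the other D6 cells, the counts of 2038 higher and 3809 lower genes stayed within 1.5 times without doublets, without cells under 1000 genes, with a mean of CPM per cell, with at least 20 UMIs and after division by the median ratio. They were 1301 higher and 2727 lower in cells thinned to 3000 UMIs, where 10058 genes had enough UMIs, 4836 and 9251 with at least 1 UMI, 901 and 1849 at 4-fold, and 1476 and 2235 against the somite-like cells only. Leaving out the 41 cells of the 2 small sub-groups, a setting chosen after seeing the data, gave 2035 and 3947, and leaving out cells under 3000 UMIs as well gave 2052 and 3921. Against the 53 D10 cells, the counts of 612 and 379 became 1685 and 1004 with at least 20 UMIs, 305 and 145 in thinned cells, and 550 and 440 after division by the median ratio.

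Of the genes named in the text that were called 2-fold higher or lower against the other D6 cells, 8 changed side against the somite-like cells only. Bmp2 was then at 1.47, Col3a1 at 0.958, Snai1 at 0.945, Snai2 at 0.336, Zeb1 at 0.602, Tbx18 at 0.654, Hoxb8 at 0.467 and Hoxd8 at 0.442 times the somite-like level. Without the small sub-groups Cxcl16 was at 0.892 and Laptm5 at 0.0756, and without cells under 3000 UMIs as well at 0.832 and 0.0455. No other such gene changed side in these settings, but genes within 2-fold could: Acta2 went from 0.580 to 1.56 with a mean of CPM per cell. In thinned cells Esam went from 2.08 to 1.19, Cxcl16 from 2.27 to 1.43, Snai2 from 2.04 to 1.75 and Zeb1 from 2.09 to 1.98. Apart from the comparison with the somite-like cells and division by the median ratio, 49 of 162 gene ratios moved by over 1.5 times in some setting: 30 without the small sub-groups, 23 with a mean of CPM per cell, 19 in thinned cells and 13 without doublets. In thinned cells the ratio went from 0.256 to 0.128 for Chrd and from 0.224 to 0.119 for Igf2. There it also went from 33.2 to 21.9 for Igfbp6 and from 778 to 518 for Ccl5. With a mean of CPM per cell it went from 16.6 to 9.89 for Cyp26b1 and from 84.6 to 137 for Hoxc8. Without the small sub-groups it went from 0.138 to 0.0699 for Fbn2 and from 0.0808 to 0.0298 for Aldh1a2. The causes of these shifts were not tested, apart from the number of genes or cells that a setting leaves. No paired analysis was possible because each condition had 1 library.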
